A study of Homo sapiens with 6 samples.

Results

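The 37 genes of the human mitochondrial genome were followed in RNA-seq libraries of H2170, an established human lung squamous cell carcinoma line. Cells expressed a GFP fusion of ACK1 (IDRmut), a GFP fusion of ACK1 (WT), or GFP alone (Control), with 2 libraries in each of these 3 groups and therefore GFP in all of them. ACK1 is the non-receptor tyrosine kinase encoded by TNK2, and IDRmut is the name the submitters gave to its mutant form. The study profiled genes regulated by ACK1 condensates. The mitochondrial genes were taken as every row of the deposited count table whose Ensembl identifier maps to a symbol beginning with MT-, which gave 37 of 61487 rows: 13 mRNAs, 2 ribosomal RNAs and 22 transfer RNAs. Of these, 31 passed the filter on low counts, namely all 13 mRNAs, both rRNAs and 16 tRNAs. The labels do not say whether the 2 libraries of a group came from separate cultures or clones, or how the fusions were delivered. The p-values therefore measure the spread between libraries, which may be technical.

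Library totals lay between 19128111 and 33540998 counts, the largest being WT replicate 2. TNK2 averaged 1609 ± 217 CPM in IDRmut, 3564 ± 69.8 CPM in WT and 42.1 ± 1.41 CPM in Control (SD, n = 2 each; CPM taken on the TMM-scaled library size). TNK2 counts thus differed between the 2 ACK1 groups (log2 fold change of IDRmut over WT -1.15 ± 0.06, SE). Whether the mutation itself changes how many reads are counted to TNK2 was not tested. The mutation and the level of ACK1 cannot be told apart in a comparison of IDRmut with WT. Squamous and basal markers summed to between 1759 and 1892 CPM in IDRmut, 1284 and 1324 CPM in WT and 2624 and 2655 CPM in Control, most of it KRT14, S100A2 and SOX2. The 8 tested squamous markers did not all go with that sum. In IDRmut against Control 4 were called higher and 3 lower (15.6% and 15.9% of all genes). In WT against Control 2 were called higher and 5 lower (17.4% and 17.6% of all genes). In IDRmut against WT 8 were called higher and 0 lower (12.3% and 14.2% of all genes). Of the 9 squamous markers, PKP1 was near absent, at 0.182 CPM or less in every library. The leukocyte markers summed to at most 0.736 CPM in any library, with CD3E at 0. Fibroblast markers summed to between 910 and 969 CPM in IDRmut, 696 and 707 CPM in WT and 877 and 899 CPM in Control, most of it COL1A2. Endothelium markers summed to between 96.8 and 99.7 CPM in IDRmut, 46.5 and 47.7 CPM in WT and 218 and 225 CPM in Control, most of it CDH5. The part of these marker differences in the results was not tested. Of the fibroblast markers, COL1A1, COL3A1, DCN and LUM reached at most 1.77 CPM in any library. Of the endothelium markers, PECAM1, VWF and CLDN5 reached at most 1.08 CPM. In bulk RNA of a single line, fewer cells expressing a gene and less of its RNA per cell cannot be told apart.

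Human mitochondrial DNA is a small circular genome copied into long polycistronic RNAs from both strands by the polymerase POLRMT with TFAM and TFB2M. Most of its mRNAs and both rRNAs are separated from each other by tRNA genes. Cutting out the tRNAs at their ends releases the mRNAs and rRNAs, most of which then receive short poly-A tails. The mRNAs encode core subunits of respiratory complexes I, III, IV and V, and the rRNAs and tRNAs serve the mitochondrial ribosome that translates them. All other proteins of these complexes are made from nuclear genes and imported.

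Several sequence features of these genes bear on how their reads can be assigned, and are shown for that reason. Coordinates are those of GENCODE release 29 on GRCh38, and sequences are from its transcripts, written 5′ to 3′ as DNA. MT-ATP8 and MT-ATP6 overlap by 46 bases (chrM:8527-8572, plus strand), which is 22.2% of MT-ATP8. The first line gives that overlap with the start codon of MT-ATP6 and the stop codon of MT-ATP8 in capitals. MT-ND4L and MT-ND4 share 7 bases (chrM:10760-10766, plus strand). The second line gives the end of MT-ND4L from position 10748 with the shared bases in capitals.
MT-ATP8/MT-ATP6: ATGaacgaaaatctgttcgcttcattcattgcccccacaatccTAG
MT-ND4L/MT-ND4: aaacctactccaATGCTAA

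The reading frames of 6 of the 13 mRNAs end before a full stop codon in the annotation. In 5 of them (MT-ND2, MT-CO3, MT-ND3, MT-ND4 and MT-CYB) the last base is a lone T, and in 1 (MT-ND1) the last bases are TA. The poly-A tail completes such a codon to TAA, so for these mRNAs the tail that the library preparation selects is also part of the message. The ends of 3 of them follow, with the bases after the last full sense codon in capitals (chrM:4240-4262, chrM:5490-5511 and chrM:9969-9990, all plus strand).
MT-ND1 end: tccagcattccccctcaaaccTA
MT-ND2 end: ccttttatactaataatcttaT
MT-CO3 end: tccatctattgatgagggtctT

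A set of 5 tRNA genes held 89.2% of all tRNA counts. They are printed with their anticodons in capitals: MT-TC for cysteine (chrM:5761-5826, minus strand), MT-TN for asparagine (chrM:5657-5729, minus strand), MT-TP for proline (chrM:15956-16023, minus strand), MT-TL1 for leucine (chrM:3230-3304, plus strand) and MT-TY for tyrosine (chrM:5826-5891, minus strand). MT-TC and MT-TY share 1 base, at position 5826, and MT-TL1 begins at the base after the end of MT-RNR2.
MT-TC: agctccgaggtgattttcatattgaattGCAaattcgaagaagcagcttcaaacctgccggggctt
MT-TN: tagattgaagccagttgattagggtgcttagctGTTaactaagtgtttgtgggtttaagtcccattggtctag
MT-TP: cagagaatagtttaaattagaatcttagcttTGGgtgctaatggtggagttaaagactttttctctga
MT-TL1: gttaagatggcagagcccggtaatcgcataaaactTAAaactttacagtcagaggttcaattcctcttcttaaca
MT-TY: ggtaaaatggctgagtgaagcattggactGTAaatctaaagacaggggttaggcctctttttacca

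The mitochondrial genes together took 5.06% and 5.47% of all counts in IDRmut, 4.32% and 4.15% in WT, and 4.69% and 5.00% in Control. By these raw shares the WT libraries were lowest and the IDRmut libraries highest, and the ranges of the 3 groups did not overlap. On the TMM-scaled library size WT stayed lowest, at 42423 and 40742 CPM. There IDRmut (50499.5 and 54567 CPM) and Control (47987 and 51409.5 CPM) overlapped. The mRNAs held most of these counts, at 4.16% and 4.48% of the library in IDRmut, 3.75% and 3.59% in WT, and 3.91% and 4.18% in Control. For the mRNAs, WT lay below both other groups, and the IDRmut and Control ranges overlapped. The rRNAs took 0.922 ± 0.0720% in IDRmut, 0.548 ± 0.0119% in WT and 0.776 ± 0.0209% in Control, with no overlap between groups (SD, n = 2 each). The tRNAs took 0.0209 ± 0.000485% in IDRmut, 0.0208 ± 0.000942% in WT and 0.0213 ± 0.00113% in Control, with overlapping ranges. No test was run on these sums, because an exact permutation test of 2 libraries against 2 gives no p below 0.3333.

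**Figure D1:**
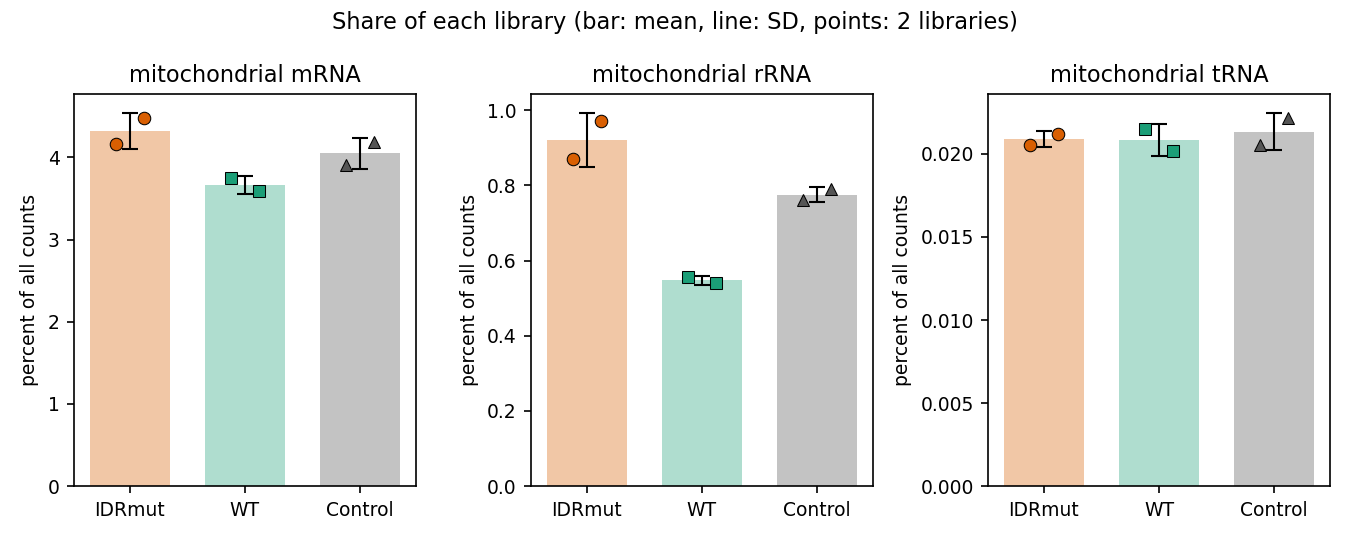
Percent of all counts in each library taken by mitochondrial mRNAs, rRNAs and tRNAs, for IDRmut, WT and Control. Bars are group means, lines the SD and points the 2 libraries; the rRNA share was 0.922% in IDRmut, 0.548% in WT and 0.776% in Control, while the tRNA share lay near 0.021% in all 3 groups.

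Per kilobase of gene, the mRNAs spanned a wide range of levels in an order that was close to the same in every library. Over the 6 libraries MT-CO1 averaged 8950 CPM per kb, MT-CO2 6937, MT-CO3 5899, MT-ND4 4213, MT-ND4L 4027, MT-ATP6 3123, MT-CYB 2169, MT-ND2 1757, MT-ND1 1470, MT-ND5 958, MT-ND3 853, MT-ATP8 289.5 and MT-ND6 220.4. The highest of the 13 stood 40.6-fold above the lowest. The 3 complex IV mRNAs led this order, and MT-ND6, the only mRNA encoded on the minus strand, closed it. Most neighbours in the order, with MT-RNR2 at 4550 CPM per kb between MT-CO3 and MT-ND4 and MT-RNR1 at 437 CPM per kb between MT-ND3 and MT-ATP8, had overlapping ranges over the 6 libraries. The ranges of neighbours stood apart only between MT-ND4L and MT-ATP6, between MT-ND1 and MT-ND5 and between MT-ND3 and MT-RNR1.

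**Figure D2:**
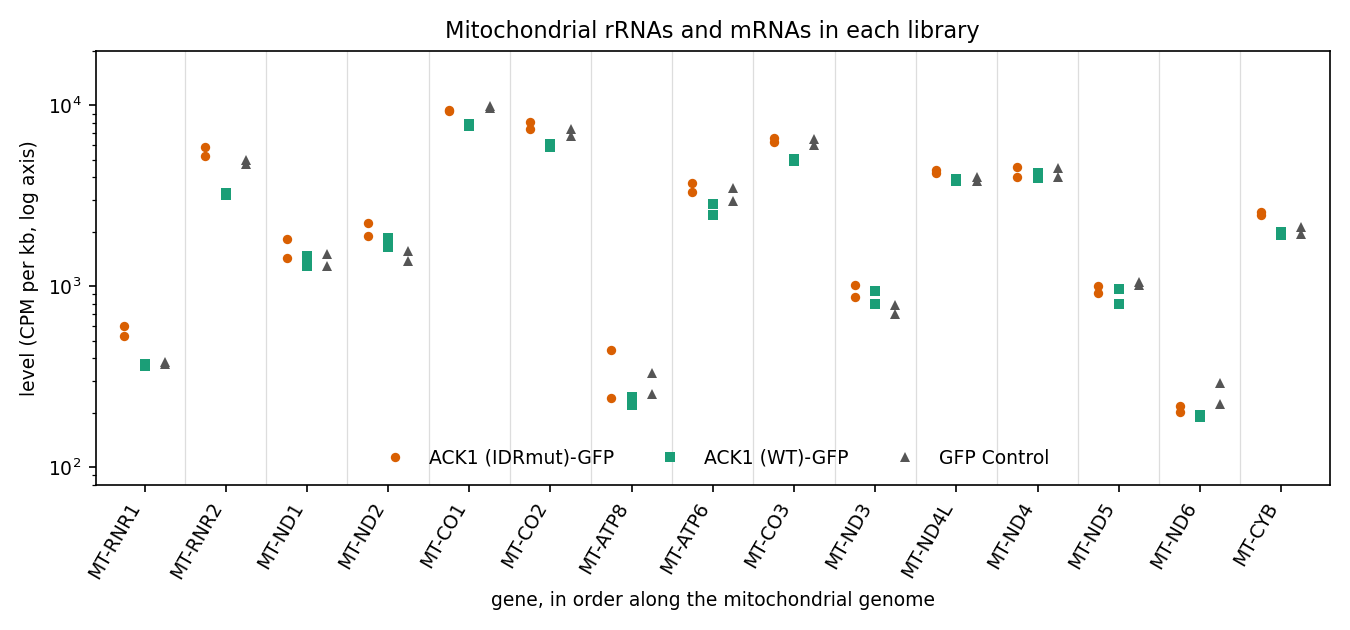
Level of the 13 mRNAs and 2 rRNAs in each library, in CPM per kb of gene on a log axis, in genome order and coloured by group. MT-CO1 stood near 8950 CPM per kb and MT-ND6 near 220.4 CPM per kb in the mean over the 6 libraries, and the order of genes was close to the same in all libraries.

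Of the mRNAs and rRNAs, the 2 rRNAs had the largest differences between IDRmut and WT. MT-RNR2 is the RNA of the large mitochondrial ribosomal subunit (ENSG00000210082, chrM:1671-3229, plus strand) and MT-RNR1 that of the small subunit (ENSG00000211459, chrM:648-1601, plus strand). MT-RNR2 fell in WT relative to Control while MT-RNR1 was not called, and in IDRmut both rose relative to Control.

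MT-RNR2 had 8189.8 and 9121 CPM in IDRmut, 5106 and 4951 CPM in WT, and 7423 and 7768 CPM in Control. The 3 groups did not overlap, with WT lowest. Relative to Control, WT fell by 33.8%, a log2 fold change of -0.59 ± 0.04 (SE; edgeR adjusted p = 5.7e-09). IDRmut stood 72.1% above WT (0.78 ± 0.04; edgeR adjusted p = 4.8e-10). IDRmut stood 14.0% above Control (0.19 ± 0.04; edgeR adjusted p = 0.0021), a call that was lost without Control replicate 1 (0.15; edgeR adjusted p = 0.064).

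MT-RNR1 had 508 and 574 CPM in IDRmut, 356 and 346 CPM in WT, and 356 and 364 CPM in Control. The IDRmut libraries lay above all others, while WT and Control overlapped. IDRmut stood 50.5% above Control (0.59 ± 0.05; edgeR adjusted p = 4.4e-08) and 54.4% above WT (0.63 ± 0.05; edgeR adjusted p = 2.9e-08), whereas the difference of WT from Control was -0.04 ± 0.05 (edgeR adjusted p = 0.59). Per kilobase, MT-RNR2 exceeded MT-RNR1 by 9.79 ± 0.100 times in IDRmut, 8.77 ± 0.0132 times in WT and 12.9 ± 0.214 times in Control (SD, n = 2 each). This ratio was lower in both ACK1 groups than in Control, without overlap, and no test was run on it.

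Poly-A selection bears on the level of both rRNAs, since their tails are short. A list of 32 RNAs mostly without a poly-A tail, made of small noncoding RNAs and replication-dependent histone mRNAs, was therefore read beside them. The list summed to between 25.7 and 26.3 CPM in IDRmut, 38.4 and 40.4 CPM in WT and 19.9 and 20.2 CPM in Control. It was highest in WT, where MT-RNR2 was lowest. Much of the sum came from histone genes. H2AC6 averaged 8.84 CPM in IDRmut, 14.9 CPM in WT and 4.56 CPM in Control, and H1-2 averaged 8.46, 9.38 and 5.89 CPM. The part of histone expression in the sum was not tested. Between 12 and 18 of the 32 members of the list had 0 counts in a library. Of its 8 tested members, 0 were called higher and 6 lower in IDRmut than in WT, where 12.3% of all genes were called higher and 14.2% lower. DESeq2 called 0 higher and 1 lower there. In IDRmut against Control 4 were called higher and 2 lower (15.6% and 15.9% of all genes), and in WT against Control 4 higher and 0 lower (17.4% and 17.6% of all genes), with 0 lower at an unadjusted p under 0.05. The part of tail selection in the rRNA levels was not tested.

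**Figure D3:**
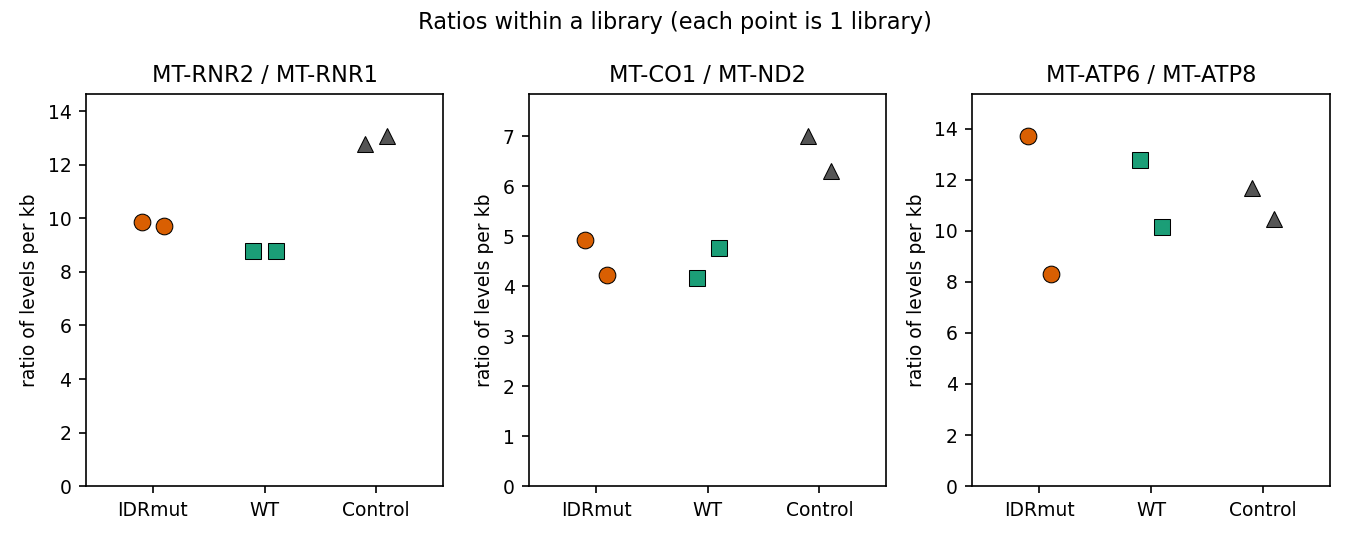
Ratios of levels per kb in each library for 3 pairs of genes: MT-RNR2 over MT-RNR1, MT-CO1 over MT-ND2 and MT-ATP6 over MT-ATP8, with points for libraries of IDRmut, WT and Control. MT-RNR2 over MT-RNR1 averaged 9.79 in IDRmut, 8.77 in WT and 12.9 in Control, and MT-ATP6 over MT-ATP8 overlapped in all 3 groups.

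Among the 13 mRNAs, WT against Control gave 2 called higher and 6 called lower (edgeR's quasi-likelihood test, adjusted p under 0.05 over all 16591 genes tested), where 17.4% of all genes were called higher and 17.6% lower. The median log2 fold change of the 13 was -0.24, against 0.00 over all genes tested. DESeq2 called 0 higher and 4 lower there, and edgeR without a filter on low counts 2 higher and 7 lower. IDRmut against Control gave 5 called higher and 1 called lower, with a median of 0.13, where 15.6% of all genes were called higher and 15.9% lower. IDRmut against WT gave 8 called higher and 0 called lower, with a median of 0.24 and positive values for 13 of 13, where 12.3% of all genes were called higher and 14.2% lower. Between IDRmut and WT, 0 mRNAs were lower at an unadjusted p under 0.05 in edgeR, and DESeq2 called 6 higher and 0 lower. The counts moved when a library was left out, that of mRNAs called lower in WT than in Control among them. Without Control replicate 1 or WT replicate 1, 0 mRNAs were called higher in WT than in Control. Those called higher in IDRmut than in Control numbered 2 without Control replicate 1 and 8 without IDRmut replicate 1, and those called lower numbered 0 without Control replicate 2, 2 without WT replicate 1 or WT replicate 2 and 4 without IDRmut replicate 2. Without IDRmut replicate 1, 13 of 13 were called higher in IDRmut than in WT. The 3 comparisons share libraries and so are not independent of each other.

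**Figure D4:**
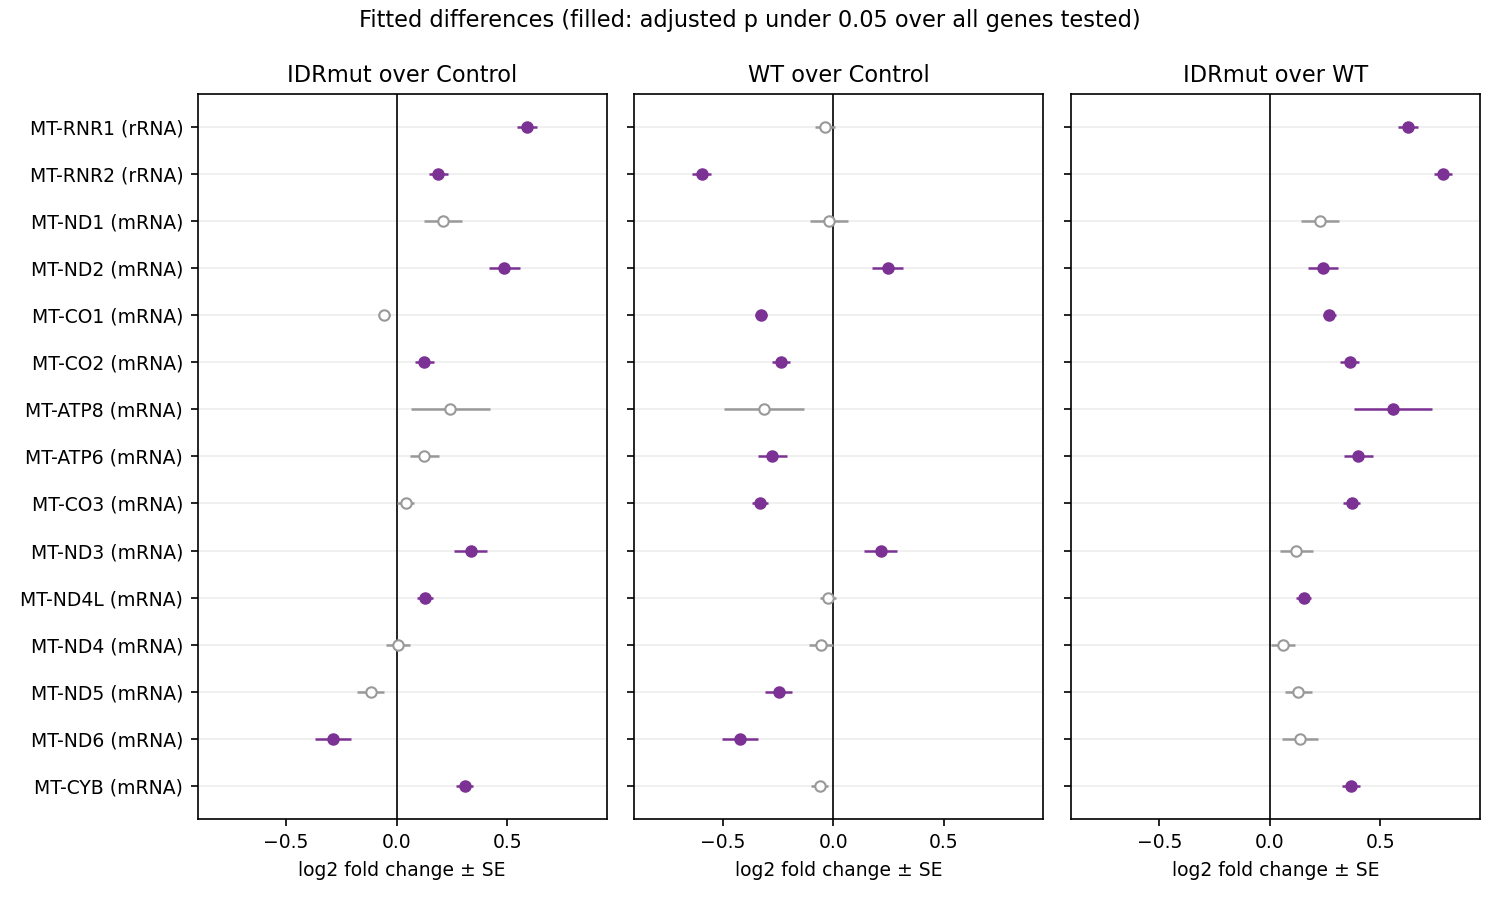
Log2 fold change with its SE for each of the 13 mRNAs and 2 rRNAs, in 3 panels for IDRmut over Control, WT over Control and IDRmut over WT. Filled points passed an adjusted p of 0.05 in edgeR's quasi-likelihood test; MT-RNR2 stood at 0.19, -0.59 and 0.78 in the 3 panels.

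Complex IV, cytochrome c oxidase, passes electrons to oxygen, and its 3 catalytic core subunits are mitochondrially encoded. All 3 mRNAs fell in WT relative to Control and all 3 were higher in IDRmut than in WT, whereas IDRmut and Control were close. Their sum was 23.9% higher in IDRmut than in WT, and in WT it fell by 19.3% relative to Control.

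MT-CO1, which carries the heme and copper site that reduces oxygen (ENSG00000198804, chrM:5904-7445), had 14339.6 and 14509 CPM in IDRmut, 11852 and 12084 CPM in WT, and 14808 and 15208 CPM in Control. WT lay below every other library and IDRmut just below Control. The log2 fold change was -0.33 ± 0.03 for WT over Control (edgeR adjusted p = 9.9e-08), 0.27 ± 0.03 for IDRmut over WT (edgeR adjusted p = 2.0e-06) and -0.06 ± 0.03 for IDRmut over Control (edgeR adjusted p = 0.14). The last of these passed only without IDRmut replicate 2 (-0.07; edgeR adjusted p = 0.030).

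MT-CO2, which takes electrons from cytochrome c, had 5057 and 5507 CPM in IDRmut, 4186 and 4034 CPM in WT, and 4649 and 5038 CPM in Control. WT was again lowest, and IDRmut lay above Control by a margin smaller than its own spread. Against Control, WT stood at -0.24 ± 0.04 (edgeR adjusted p = 2.9e-04) and IDRmut over WT was 0.36 ± 0.04 (edgeR adjusted p = 6.0e-06). Against Control, IDRmut stood at 0.13 ± 0.04 (edgeR adjusted p = 0.032), a call lost without Control replicate 1 (0.07; edgeR adjusted p = 0.42), without IDRmut replicate 2 (0.06; edgeR adjusted p = 0.17) and in DESeq2 (0.12; adjusted p = 0.054).

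MT-CO3, the third core subunit, had 4918 and 5189 CPM in IDRmut, 3963 and 3851 CPM in WT, and 4730.1 and 5099 CPM in Control. IDRmut and Control overlapped, and WT lay below both. The change of WT over Control was -0.33 ± 0.04 (edgeR adjusted p = 2.5e-06), IDRmut over WT was 0.37 ± 0.04 (edgeR adjusted p = 1.2e-06) and IDRmut over Control was 0.04 ± 0.04 (edgeR adjusted p = 0.46). For MT-CO1, MT-CO2 and MT-CO3 the calls of WT against Control and of IDRmut against WT held under every alternative run.

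Complex I, NADH dehydrogenase, takes electrons from NADH, and 7 of its core subunits are mitochondrially encoded. Against Control, its mRNAs were called in both directions. WT against Control gave 2 called higher (MT-ND2 and MT-ND3) and 2 called lower (MT-ND5 and MT-ND6), and their summed level in WT differed from Control by -2.13%. IDRmut against Control gave 3 called higher (MT-ND2, MT-ND3 and MT-ND4L) and 1 called lower (MT-ND6). IDRmut against WT gave 2 called higher (MT-ND2 and MT-ND4L) and positive values for 7 of 7, with a sum 9.28% higher in IDRmut. Without IDRmut replicate 1 all 7 were called higher there. The sum was 6.96% higher in IDRmut than in Control.

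MT-ND2, a proton-pumping membrane subunit (ENSG00000198763, chrM:4470-5511), had 1965 and 2326 CPM in IDRmut, 1921 and 1711 CPM in WT, and 1429 and 1633 CPM in Control. The Control libraries lay below all 4 ACK1 libraries. The change of IDRmut over Control was 0.49 ± 0.07 (edgeR adjusted p = 3.4e-05), and this call held under every alternative run. WT over Control was 0.25 ± 0.07 (edgeR adjusted p = 0.0099), a call lost without Control replicate 1 (0.15; edgeR adjusted p = 0.21), without WT replicate 1 (0.16; edgeR adjusted p = 0.094) and in DESeq2 (0.25; adjusted p = 0.24). IDRmut over WT was 0.24 ± 0.07 (edgeR adjusted p = 0.014), lost without WT replicate 2 (0.16; edgeR adjusted p = 0.13), without IDRmut replicate 2 (0.12; edgeR adjusted p = 0.086) and in DESeq2 (adjusted p = 0.27). Per kilobase, MT-CO1 exceeded MT-ND2 by 4.57 ± 0.506 times in IDRmut, 4.47 ± 0.426 times in WT and 6.65 ± 0.502 times in Control (SD, n = 2 each). The ratio was below both Control libraries in all 4 ACK1 libraries.

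MT-ND3, a small membrane subunit, had 299.8 and 352 CPM in IDRmut, 327 and 275 CPM in WT, and 244 and 274 CPM in Control. IDRmut lay above Control, and the lower WT library came within 1 CPM of the higher Control library. For IDRmut over Control the value was 0.33 ± 0.08 (edgeR adjusted p = 0.0027), lost without Control replicate 1 (0.25; edgeR adjusted p = 0.085) and in DESeq2 (adjusted p = 0.12). Against Control, WT stood at 0.21 ± 0.08 (edgeR adjusted p = 0.036), lost without Control replicate 1 (0.13; edgeR adjusted p = 0.37), without WT replicate 1 (0.09; edgeR adjusted p = 0.42) and in DESeq2 (adjusted p = 0.37). Against WT, IDRmut stood at 0.12 ± 0.07 (edgeR adjusted p = 0.27) and reached 0.24 and passed without WT replicate 1 or IDRmut replicate 1. It also passed without a filter on low counts (0.11; edgeR adjusted p = 0.037).

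MT-ND4L had 1254 and 1296 CPM in IDRmut, 1159 and 1134 CPM in WT, and 1135 and 1197 CPM in Control. IDRmut lay above both other groups, which overlapped. IDRmut over Control was 0.13 ± 0.04 (edgeR adjusted p = 0.0097), lost without Control replicate 1 (0.09; edgeR adjusted p = 0.19), and IDRmut over WT was 0.15 ± 0.04 (edgeR adjusted p = 0.0036), lost without WT replicate 2 (0.14; edgeR adjusted p = 0.060). MT-ND4, which shares the bicistronic mRNA of MT-ND4L, had 5527 and 6262 CPM in IDRmut, 5852 and 5449 CPM in WT, and 5514 and 6231 CPM in Control. MT-ND4 overlapped in all 3 groups, with log2 fold changes of 0.01 ± 0.06 for IDRmut over Control, -0.06 ± 0.06 for WT over Control and 0.06 ± 0.06 for IDRmut over WT. Without IDRmut replicate 1 the last of these passed (0.15; edgeR adjusted p = 0.0034). Per kilobase, MT-ND4 over MT-ND4L was 0.996 ± 0.0643 in IDRmut, 1.06 ± 0.0372 in WT and 1.08 ± 0.0527 in Control (SD, n = 2 each).

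MT-ND1 had 1361 and 1737 CPM in IDRmut, 1413 and 1237 CPM in WT, and 1236 and 1448 CPM in Control. All 3 groups overlapped and no comparison passed, with 0.21 ± 0.09 for IDRmut over Control (edgeR adjusted p = 0.078) and 0.23 ± 0.09 for IDRmut over WT (edgeR adjusted p = 0.063). The difference from Control passed in 7 of the 14 alternatives, with values from 0.21 to 0.37 there. Without IDRmut replicate 2 it was 0.02 (edgeR adjusted p = 0.84). The difference from WT passed without WT replicate 1 (0.32) or IDRmut replicate 1 (0.40). It also passed without a filter on low counts (0.22; edgeR adjusted p = 9.3e-10).

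MT-ND5, a proton-pumping subunit, had 1658 and 1813 CPM in IDRmut, 1739 and 1437 CPM in WT, and 1845 and 1921 CPM in Control. Control lay above all 4 ACK1 libraries. The change of WT over Control was -0.25 ± 0.06 (edgeR adjusted p = 0.0049), lost without Control replicate 2 (-0.22; edgeR adjusted p = 0.068), without WT replicate 2 (-0.12; edgeR adjusted p = 0.10) and in DESeq2 (adjusted p = 0.16). Against Control, IDRmut stood at -0.12 ± 0.06 (edgeR adjusted p = 0.17) and passed without WT replicate 1, WT replicate 2 or IDRmut replicate 2 (-0.18 for the last). It also passed without a filter on low counts (-0.11; edgeR adjusted p = 0.0040). IDRmut over WT was 0.13 ± 0.06 (edgeR adjusted p = 0.14) and passed without WT replicate 1 (0.27) or IDRmut replicate 1 (0.20). It also passed without a filter on low counts (0.12; edgeR adjusted p = 0.0016).

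MT-ND6 is the only mRNA of the minus strand (ENSG00000198695, chrM:14149-14673). It had 107 and 115 CPM in IDRmut, 102 and 99.97 CPM in WT, and 117 and 153 CPM in Control. The Control libraries were highest and far apart. WT over Control was -0.42 ± 0.08 (edgeR adjusted p = 5.6e-04), which passed under every alternative run, at -0.22 without Control replicate 2 (edgeR adjusted p = 0.043). The change of IDRmut over Control was -0.29 ± 0.08 (edgeR adjusted p = 0.012), lost without Control replicate 2 (-0.08; edgeR adjusted p = 0.36) and in DESeq2 (adjusted p = 0.23). Against WT, IDRmut stood at 0.13 ± 0.08 (edgeR adjusted p = 0.25) and passed without IDRmut replicate 1 (0.19; edgeR adjusted p = 0.046). The counting strand setting is not given in the sources used here, so reads of MT-ND6 and of RNA copied from the opposite strand cannot be told apart. The part of poly-A selection in the level of MT-ND6 was not tested.

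Complex III has a single mitochondrially encoded subunit, cytochrome b. Its mRNA MT-CYB (ENSG00000198727, chrM:14747-15887) had 2806 and 2943 CPM in IDRmut, 2262 and 2195 CPM in WT, and 2229 and 2417 CPM in Control. IDRmut lay above all other libraries, while WT and Control overlapped. For IDRmut over Control the value was 0.31 ± 0.04 (edgeR adjusted p = 1.1e-05) and IDRmut over WT was 0.37 ± 0.04 (edgeR adjusted p = 1.9e-06). Both calls held under every alternative run, and WT over Control was -0.06 ± 0.04 (edgeR adjusted p = 0.25), passing only without IDRmut replicate 1 (-0.07; edgeR adjusted p = 0.047).

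Complex V, ATP synthase, has 2 mitochondrially encoded subunits, which share a bicistronic mRNA. MT-ATP6, part of the proton channel (ENSG00000198899, chrM:8527-9207), had 2254 and 2519 CPM in IDRmut, 1927 and 1688 CPM in WT, and 2011 and 2363 CPM in Control. WT was lowest, and IDRmut and Control overlapped. IDRmut over WT was 0.40 ± 0.07 (edgeR adjusted p = 2.3e-04). Against Control, WT stood at -0.28 ± 0.07 (edgeR adjusted p = 0.0037), lost without Control replicate 2 (-0.16; edgeR adjusted p = 0.13) and in DESeq2 (adjusted p = 0.16). IDRmut over Control was 0.13 ± 0.07 (edgeR adjusted p = 0.17) and passed without Control replicate 2 (0.24) or IDRmut replicate 1 (0.20). It also passed without a filter on low counts (0.13; edgeR adjusted p = 5.7e-04).

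MT-ATP8, a small stalk subunit, had 49.98 and 92.2 CPM in IDRmut, 45.8 and 50.6 CPM in WT, and 52.3 and 68.7 CPM in Control. The 2 IDRmut libraries were lowest and highest of the IDRmut and Control libraries together, and IDRmut overlapped WT. IDRmut over WT was 0.56 ± 0.17 (edgeR adjusted p = 0.026), lost without IDRmut replicate 2 (0.04; edgeR adjusted p = 0.82) and in DESeq2 (adjusted p = 0.36). Against Control, IDRmut stood at 0.24 ± 0.18 (edgeR adjusted p = 0.33). Without IDRmut replicate 2 it turned to -0.27 and passed, while without IDRmut replicate 1 it was 0.61 and passed. It also passed without a filter on low counts (0.25; edgeR adjusted p = 2.7e-04). The change of WT over Control was -0.31 ± 0.18 (edgeR adjusted p = 0.20) and passed without either IDRmut replicate. It also passed without a filter on low counts (edgeR adjusted p = 3.1e-06), in the compared libraries alone (0.0023) and with a replicate block (0.034). Per kilobase, MT-ATP6 over MT-ATP8 was 13.7 and 8.30 in IDRmut, 12.8 and 10.1 in WT, and 11.7 and 10.5 in Control, with the groups overlapping. How the authors' counting treated reads in the 46 shared bases is not given in the sources used here.

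As a share of all mitochondrial mRNA counts, MT-CO1 made up 34.5% and 32.5% in IDRmut, 32.3% and 34.3% in WT, and 37.0% and 35.3% in Control. MT-ND2 made up 4.72% and 5.21% in IDRmut, 5.23% and 4.86% in WT, and 3.57% and 3.79% in Control. Control lay above the ACK1 libraries for MT-CO1 and below them for MT-ND2. MT-CYB made up 6.75% and 6.59% in IDRmut, 6.16% and 6.23% in WT, and 5.57% and 5.62% in Control, with no overlap between the 3 groups. Across the 12 plus-strand mRNAs, the log2 fold change of IDRmut over WT had a Spearman correlation of -0.35 with gene length, 0.08 with GC content and -0.27 with position in the genome. For IDRmut over Control these values were -0.50, -0.41 and -0.20, and for WT over Control they were -0.07, -0.28 and -0.06. They describe 12 genes that share the same libraries and carry no test.

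The tRNAs were measured far more thinly, since mature tRNAs carry no poly-A tail and are only 59 to 75 bases long. Whether their counts came from mature tRNAs or from uncut precursors was not tested. Of 22 tRNAs, 6 failed the filter (MT-TF, MT-TQ, MT-TW, MT-TA, MT-TE and MT-TT), with 0 to 18 counts in a library. MT-TF had 0 counts in every library, which allows up to 3 counts per library, and MT-TQ was the only one of the 6 to reach 10 counts. The minus-strand tRNAs summed to 165 and 168 CPM in IDRmut, 170.4 and 159 CPM in WT, and 180.2 and 198 CPM in Control. The plus-strand tRNAs summed to 39.96 and 43.6 CPM in IDRmut, 40.6 and 38.5 CPM in WT, and 29.8 and 30.01 CPM in Control. Both sums separated the ACK1 libraries from Control, that of the minus strand being lower and that of the plus strand higher. No test was run on these sums. Single genes did not all follow their sum. In each ACK1 group over Control, 9 of 11 tested plus-strand tRNAs and 2 of 5 tested minus-strand tRNAs had positive values. Since the strand setting of the counting is unknown, counts of tRNA genes on either strand may include reads of RNA copied from the opposite strand, and the split follows the annotation only.

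Among the 16 tested tRNAs, 2 were called higher and 3 lower in WT than in Control, 3 higher and 3 lower in IDRmut than in Control, and 0 in either direction between IDRmut and WT by edgeR. Between IDRmut and WT, 0 tRNAs had an unadjusted p under 0.05 in edgeR and DESeq2 called 0 of the 9 to which it gave an adjusted p. DESeq2 called 1 higher and 1 lower in IDRmut than in Control and 0 higher and 2 lower in WT than in Control. These edgeR counts were near or below the shares of all genes called. The shares were 17.4% higher and 17.6% lower in WT against Control. They were 15.6% and 15.9% in IDRmut against Control, and 12.3% and 14.2% in IDRmut against WT. The 3 called lower against Control were the same in both ACK1 groups, namely MT-TC, MT-TN and MT-TY, which are annotated beside each other on the minus strand between MT-ND2 and MT-CO1. Their reads and those of RNA copied from the plus strand at the same place cannot be told apart. Since both comparisons use the same Control libraries, their calls are not independent.

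MT-TC had 82.5 and 86.6 CPM in IDRmut, 85.3 and 79.9 CPM in WT, and 96.6 and 103 CPM in Control. Control lay above all 4 ACK1 libraries. The change of IDRmut over Control was -0.24 ± 0.05 (edgeR adjusted p = 0.0015) and WT over Control was -0.28 ± 0.05 (edgeR adjusted p = 3.0e-04), and both calls held under every alternative run.

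MT-TN had 28.6 and 32.9 CPM in IDRmut, 33.1 and 30.0 CPM in WT, and 34.7 and 39.6 CPM in Control, again without overlap of Control and the ACK1 groups. For IDRmut over Control the value was -0.27 ± 0.08 (edgeR adjusted p = 0.016), lost without Control replicate 2 (-0.18; edgeR adjusted p = 0.22), without IDRmut replicate 1 (-0.18; edgeR adjusted p = 0.083) and in DESeq2 (adjusted p = 0.054). WT over Control was -0.25 ± 0.08 (edgeR adjusted p = 0.021), lost without Control replicate 2 (-0.15; edgeR adjusted p = 0.28), without WT replicate 2 (-0.17; edgeR adjusted p = 0.22) and in DESeq2 (adjusted p = 0.088).

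MT-TY had 10.1 and 12.6 CPM in IDRmut, 10.9 and 10.3 CPM in WT, and 15.4 and 13.7 CPM in Control. Control was highest. IDRmut over Control was -0.36 ± 0.11 (edgeR adjusted p = 0.018), lost without Control replicate 1 (-0.27; edgeR adjusted p = 0.19), without IDRmut replicate 1 (-0.22; edgeR adjusted p = 0.15) and in DESeq2 (adjusted p = 0.10). Against Control, WT stood at -0.47 ± 0.11 (edgeR adjusted p = 0.0024), lost without Control replicate 1 (-0.38; edgeR adjusted p = 0.060).

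The tRNAs called higher against Control were all annotated on the plus strand. MT-TR, for arginine, follows MT-ND3 directly (chrM:10405-10469) and had 6.33 and 6.32 CPM in IDRmut, 6.02 and 6.03 CPM in WT, and 4.72 and 2.15 CPM in Control. Control was lowest and its libraries differed from each other by more than any ACK1 libraries did. Against Control, IDRmut stood at 0.87 ± 0.21 (edgeR adjusted p = 0.0050) and WT over Control 0.80 ± 0.21 (edgeR adjusted p = 0.0065). Without Control replicate 2 both calls were lost (0.42 for IDRmut, edgeR adjusted p = 0.080; 0.35 for WT, edgeR adjusted p = 0.13), as they were in DESeq2 (adjusted p = 0.14 for IDRmut and 0.17 for WT).

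MT-TD, for aspartate, lies directly before MT-CO2 (chrM:7518-7585) and had 3.24 and 3.50 CPM in IDRmut, 3.53 and 3.31 CPM in WT, and 2.59 and 2.10 CPM in Control. Control was lowest. The change of IDRmut over Control was 0.52 ± 0.18 (edgeR adjusted p = 0.040) and WT over Control 0.53 ± 0.18 (edgeR adjusted p = 0.028). The IDRmut call was lost in 6 alternatives, with values from 0.38 to 0.68, among them those without Control replicate 1, Control replicate 2 and IDRmut replicate 2. The WT call was lost in 4, with values from 0.39 to 0.58, among them those without Control replicate 2, WT replicate 1 and WT replicate 2.

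MT-TL1 had 18.2 and 21.4 CPM in IDRmut, 18.3 and 16.6 CPM in WT, and 12.1 and 16.6 CPM in Control. IDRmut lay above Control, and WT reached down to the higher Control library. For IDRmut over Control the value was 0.47 ± 0.12 (edgeR adjusted p = 0.0063), lost without Control replicate 1 (0.25). WT over Control was 0.28 ± 0.12 (edgeR adjusted p = 0.083), passing without Control replicate 2 (0.52) or either IDRmut replicate (0.27). It also passed with upper-quartile scaling (0.31; edgeR adjusted p = 0.048), without a filter on low counts (0.29; 0.018) and in the compared libraries alone (0.28; 0.034). IDRmut over WT, at 0.19 ± 0.11, passed without IDRmut replicate 1 (0.31; edgeR adjusted p = 0.026). MT-TP, at 41.8 and 33.7 CPM in IDRmut, 38.5 and 36.5 CPM in WT, and 31.9 and 38.8 CPM in Control, overlapped in all groups and was not called, except in IDRmut over Control without IDRmut replicate 2 (0.25; edgeR adjusted p = 0.020). The other tested tRNAs (MT-TV, MT-TI, MT-TM, MT-TS1, MT-TK, MT-TG, MT-TH, MT-TS2 and MT-TL2) stood between 0.196 and 4.74 CPM in every library. With TMM scaling, the filter and all 6 libraries, none of them was called. MT-TG in WT over Control passed with upper-quartile scaling (0.78; edgeR adjusted p = 0.040) and without a filter on low counts (0.75; 0.0069). Without that filter it also passed in IDRmut over Control (0.68; edgeR adjusted p = 0.030). MT-TM in WT over Control passed in the compared libraries alone (0.97; edgeR adjusted p = 0.046). With a library left out, MT-TG, MT-TH, MT-TM and MT-TK each passed in at least 1 comparison, MT-TG in WT over Control at up to 1.16 (edgeR adjusted p = 0.0025 without WT replicate 2).

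**Figure D5:**
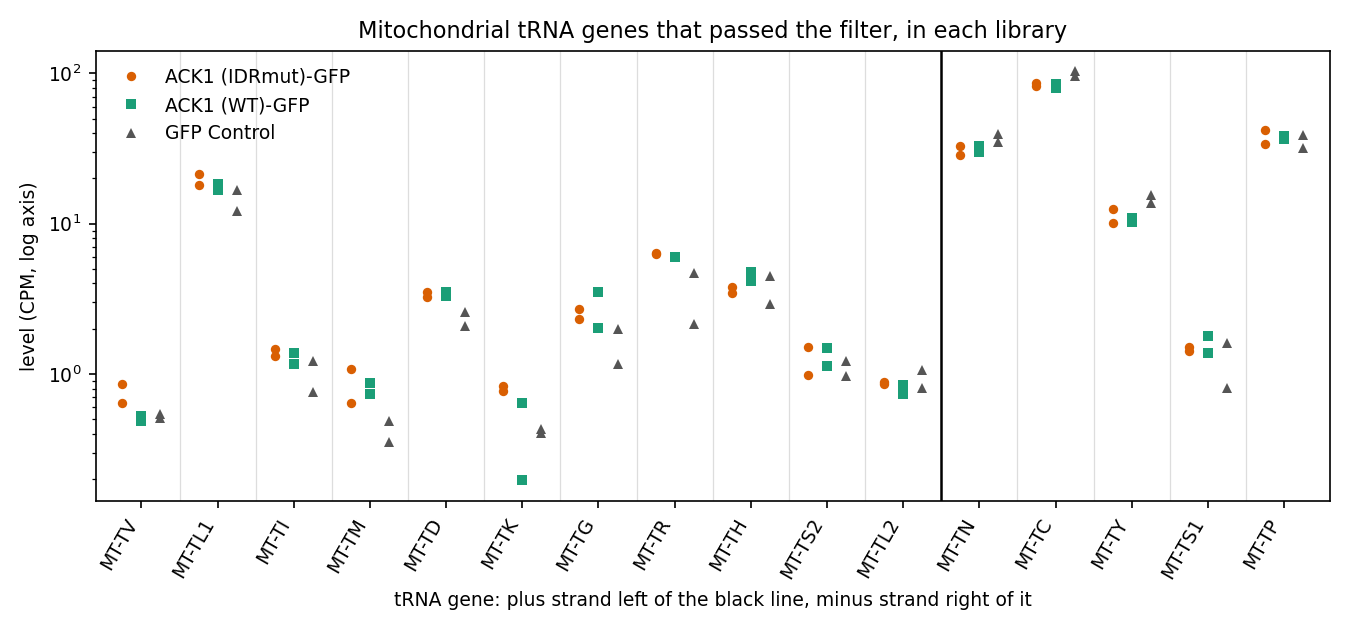
CPM of the 16 tested tRNAs in each library on a log axis, with plus-strand genes left of the black line and minus-strand genes right of it, coloured by group. MT-TC was the most abundant, at 79.9 to 103 CPM, and lay lower in all 4 ACK1 libraries than in both Control libraries.

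Nuclear DNA holds copies of mitochondrial genes, and reads can be split between them. The table has 417 rows named as such copies, which held 55211 counts over all libraries, or 0.864% of the 6389430 counts of the mitochondrial genes. A set of 4 of them (MTATP6P1, MTND2P28, MTCO1P12 and MTND4P12) held 98.6% of those counts. MTND2P28 had 128 and 156 CPM in IDRmut, 139.8 and 127 CPM in WT, and 95.97 and 111 CPM in Control. Like MT-ND2 it was called higher in both ACK1 groups than in Control, but unlike MT-ND2 it was not called between IDRmut and WT (0.09; edgeR adjusted p = 0.40). MTATP6P1 had 259 and 281 CPM in IDRmut, 229.8 and 212 CPM in WT, and 236 and 266 CPM in Control, and like MT-ATP6 it was called lower in WT than in Control and higher in IDRmut than in WT. The other 2 had other calls than their parent genes. In WT over Control MTCO1P12 was at -0.09 (edgeR adjusted p = 0.52), where MT-CO1 fell, and MTND4P12 was at -0.48 (edgeR adjusted p = 0.031), where MT-ND4 was not called. How reads that match several places were handled is not given in the sources used here, so how many reads of MT-ND2 and MT-ATP6 were counted to these copies cannot be told.

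The nuclear genes that make and process mitochondrial RNA were read from lists beside the members. The counts of these lists stand beside the shares of all genes called: 15.6% higher and 15.9% lower in IDRmut against Control, 17.4% and 17.6% in WT against Control, and 12.3% and 14.2% in IDRmut against WT. Most counts were near or below those shares. Of 20 genes for mitochondrial transcription and mtDNA maintenance, 6 were called higher and 1 lower in IDRmut than in WT, 3 higher and 2 lower in IDRmut than in Control, and 1 higher and 4 lower in WT than in Control. TWNK, the helicase of mtDNA replication, averaged 87.4 ± 4.35 CPM in IDRmut, 68.1 ± 1.23 CPM in WT and 71.7 ± 1.31 CPM in Control (SD, n = 2 each), a log2 fold change of 0.36 ± 0.05 for IDRmut over WT (edgeR adjusted p = 2.7e-05). TFB2M, the transcription initiation factor, averaged 37.7 ± 2.60 CPM in IDRmut, 30.3 ± 1.53 CPM in WT and 28.8 ± 0.838 CPM in Control (SD, n = 2 each). It rose in IDRmut over WT by 0.31 ± 0.06 (edgeR adjusted p = 0.0018).

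Of 30 genes for mitochondrial RNA processing and turnover, 9 were called higher and 1 lower in IDRmut than in Control (15.6% and 15.9% of all genes). In IDRmut against WT 6 were higher and 1 lower (12.3% and 14.2% of all genes). In WT against Control 1 was higher and 3 lower (17.4% and 17.6% of all genes). DESeq2 called 2 higher and 0 lower in IDRmut than in Control. LRPPRC, which with SLIRP protects mitochondrial mRNAs, averaged 473 ± 16.1 CPM in IDRmut, 427 ± 0.287 CPM in WT and 422 ± 2.32 CPM in Control (SD, n = 2 each). It rose in IDRmut over Control by 0.16 ± 0.04 (edgeR adjusted p = 0.0018). IDRmut over WT was 0.15 ± 0.04 (edgeR adjusted p = 0.0048) and was lost without WT replicate 1 or WT replicate 2 (0.14 and 0.15; edgeR adjusted p = 0.056 and 0.053). TRNT1, which adds the CCA end to tRNAs, averaged 69.1 ± 3.50 CPM in IDRmut, 57.3 ± 1.37 CPM in WT and 65.2 ± 1.47 CPM in Control (SD, n = 2 each), and IDRmut over WT was 0.28 ± 0.05 (edgeR adjusted p = 5.9e-04).

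Products of the 79 tested mitochondrial ribosomal protein genes assemble on the 2 rRNAs. Of these genes 15 were called higher and 3 lower in IDRmut than in Control (15.6% and 15.9% of all genes). In WT against Control 9 were higher and 3 lower (17.4% and 17.6% of all genes). In IDRmut against WT 7 were higher and 3 lower (12.3% and 14.2% of all genes). Summed, the ribosomal protein genes ranged from 3432 to 3438 CPM in IDRmut, 3345 to 3372 CPM in WT and 3279 to 3284 CPM in Control. Control was lowest, unlike MT-RNR2, which was lowest in WT. MRPS6, a small subunit protein, averaged 77.2 ± 2.73 CPM in IDRmut, 45.8 ± 1.70 CPM in WT and 47.7 ± 4.41 CPM in Control (SD, n = 2 each), and IDRmut over WT was 0.75 ± 0.06 (edgeR adjusted p = 5.1e-08).

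Nuclear-encoded subunits of the same complexes were counted in the same way. For complex IV, 1 of 11 nuclear genes was called higher and 7 lower in WT than in Control (17.4% and 17.6% of all genes). The median log2 fold change there was -0.16. In IDRmut against WT 2 were called higher and 0 lower (12.3% and 14.2% of all genes), with a median of 0.04. NDUFA4 averaged 149.6 ± 3.29 CPM in IDRmut, 141 ± 0.101 CPM in WT and 170.4 ± 10.2 CPM in Control (SD, n = 2 each), with -0.27 ± 0.04 for WT over Control (edgeR adjusted p = 1.2e-04). In IDRmut against Control 1 of the 11 was called higher and 3 lower (15.6% and 15.9% of all genes). The same shares apply to the other complexes. For complex I, 2 of 37 were called higher and 6 lower in IDRmut than in Control, 3 higher and 8 lower in WT than in Control, and 1 higher and 0 lower in IDRmut than in WT. Complex III had 0 of 9 higher and 1 lower in IDRmut against Control, 1 higher and 2 lower in WT against Control, and 3 higher and 2 lower in IDRmut against WT. Complex V had 0 of 18 higher and 2 lower in IDRmut against Control, 1 higher and 5 lower in WT against Control, and 2 higher and 1 lower in IDRmut against WT. Complex II, which has no mitochondrially encoded subunit, had 0 of 4 called in either direction against Control by edgeR or DESeq2, although 2 were lower in WT at an unadjusted p under 0.05. Its subunit gene SDHD was called higher in IDRmut than in WT (0.23; edgeR adjusted p = 0.0027). No difference between nuclear and mitochondrial subunits was tested.

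Among 10 regulators of mitochondrial biogenesis, 3 were called higher and 1 lower in IDRmut than in WT (12.3% and 14.2% of all genes). In IDRmut against Control 1 was higher and 3 lower (15.6% and 15.9% of all genes). In WT against Control 1 was higher and 4 lower (17.4% and 17.6% of all genes). The same shares apply to the mitophagy genes below. MYC averaged 150.4 ± 8.14 CPM in IDRmut, 99.1 ± 3.17 CPM in WT and 105 ± 1.99 CPM in Control (SD, n = 2 each), with 0.60 ± 0.05 for IDRmut over WT (edgeR adjusted p = 4.1e-08). Among 14 mitophagy genes, 3 were called higher and 1 lower in IDRmut than in Control, 5 higher and 2 lower in WT than in Control, and 1 higher and 2 lower in IDRmut than in WT. SQSTM1, an autophagy receptor, averaged 189.9 ± 15.3 CPM in IDRmut, 264 ± 1.56 CPM in WT and 153 ± 1.96 CPM in Control (SD, n = 2 each), and WT over Control was 0.78 ± 0.05 (edgeR adjusted p = 7.8e-10). OPTN, another such receptor, averaged 23.9 ± 0.0938 CPM in IDRmut, 38.5 ± 0.690 CPM in WT and 19.8 ± 0.990 CPM in Control (SD, n = 2 each). Both were highest in WT, where MT-RNR2 and the complex IV mRNAs were lowest, and their part in those levels was not tested.

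Of 10887 nuclear genes compared, the 5 whose log2 CPM followed the summed mitochondrial mRNA level most closely over the 6 libraries included OSGEP, SAR1B, PIGH and PDE7A, with Pearson correlations of 0.994, 0.993, 0.989 and 0.985. OSGEP had 32.9 and 36.0 CPM in IDRmut, 29.3 and 27.8 CPM in WT, and 31.8 and 33.7 CPM in Control. WT was lowest and IDRmut and Control overlapped, as for the summed mitochondrial mRNAs. The correlations rest on 6 libraries in 3 groups and were the highest of many, so they describe these libraries only.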

How the data were processed

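RNA-seq was measured in 6 libraries of H2170 cells. Per the labels' protocols, mRNA was selected with poly-T beads from Trizol-extracted RNA, reverse transcribed from random hexamers and amplified by PCR. Per the submitters' processing notes, HISAT2 2.2.1, SAMtools 1.14, featureCounts 2.0.1 and the GRCh38 build were used. The deposited values are raw counts per Ensembl gene. For the annotation release, strand setting and handling of ambiguous reads, no source used here gives the choice made. The reads carry no molecular identifiers, so floors cover counting error only.

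Symbols came from a current gene table for 61369 of 61487 identifiers and from GENCODE release 29 for 105 more. No row was without a gene identifier, and every column belonged to a sample. Genes passing edgeR's filterByExpr (minimum count 10, minimum total 15; 16591 genes) were fitted with edgeR 4.0.16 in R 4.3.3: TMM scaling, a quasi-likelihood fit of 3 group means over all 6 libraries and Benjamini-Hochberg adjustment over all genes tested. The fit had a biological coefficient of variation of 0.0294 on 3 residual degrees of freedom and 13.5 prior ones. "Called" means an adjusted p under 0.05. A loss or gain of a call is given from that gene's own fit under each alternative: other scalings, other filters, DESeq2 1.42.0, a replicate block, the compared libraries alone, and each library left out in turn, which leaves an arm with 1 library assumed to vary like the others. Replicates of a group had Spearman correlations of 0.996 in IDRmut, 0.997 in WT and 0.996 in Control. The mean chi-square per gene between replicate counts was 3.65 in IDRmut, 1.55 in WT and 1.66 in Control. The IDRmut replicates thus differed most from each other. The fit shares its spread over the 3 groups, so its SEs and p-values do not reflect this difference between groups. On simulated data for WT against Control (16275 genes), 29 of 49 genes changed by 1.25-fold and 40 of 50 changed by 2-fold were called, with 16 calls among 16077 unchanged genes. The simulated counts were drawn from the fitted spread, shared by the 3 groups. Far fewer genes were changed in them than were called in these data. The share of false calls in these data therefore cannot be read from them.

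The text names every mitochondrial gene that passed the filter. From the other lists, cell markers aside, up to 3 genes per comparison could be named, those called with the smallest adjusted p. Of these genes the text names some, and for the nuclear subunits of complexes I, III and V none. Of the 5 genes most like the summed mitochondrial mRNAs, 1 is not reported here. The members and lists were chosen with earlier results of these data known.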

Additional observations from a re-analysis of the deposited data

How the results depend on the processing

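Of 1282 values of mitochondrial genes under the alternatives, 1174 kept their direction and side of the threshold, 51 lost a call, 56 gained one and 1 reversed with a call. The reversal was MT-ATP8 in IDRmut over Control, -0.27 without IDRmut replicate 2, in a range of -0.27 to 0.61 over the libraries left out. COX8A in IDRmut over WT reversed to -0.14 without IDRmut replicate 1, in a range of -0.14 to 0.17. The causes were not tested. Of 2435 values of the other named genes, 2211 kept both.

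DESeq2 called fewer genes than edgeR: 3290 against 5237 in IDRmut against Control, 3649 against 5807 in WT against Control, and 2534 against 4396 in IDRmut against WT. Leaving out a library gave 3451 to 5522, 3974 to 7028 and 2590 to 4761 calls in these comparisons. Of the mRNAs, those called higher in IDRmut than in Control numbered 5, with 8 without a filter, 3 in DESeq2 and 2 to 8 with a library left out. Those called lower numbered 1, with 2, 0 and 0 to 4 in the same order. The 2 called higher in WT than in Control became 0 in DESeq2 and 0 to 2 with a library left out. The 8 called higher in IDRmut than in WT ranged from 6 to 13.

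Replicate numbers did not pair the libraries: within-group deviations correlated between groups at -0.029 to -0.021 over 16591 genes. With a replicate block, 4836, 5440 and 3966 genes were called in IDRmut against Control, WT against Control and IDRmut against WT, and MT-ATP8 joined the mRNAs called lower in WT than in Control (-0.34; edgeR adjusted p = 0.034). Scaling without the mitochondrial genes left every count of called mRNAs as it was. The 6 mRNAs called lower in WT than in Control became 7 without a filter and 4 in DESeq2. With 2 libraries a group, small differences of the tRNAs, at a few CPM, are the least certain.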
